A study of Mus musculus with 479 samples.

Results

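Hearts of wild-type mice differed widely in the messenger RNA of Car3, which encodes carbonic anhydrase III, an enzyme that is abundant in adipose tissue, liver and slow skeletal muscle. The libraries described here are 20 of the 30 wild-type hearts of a Dchs1 mouse line, selected on their own Car3 level: the 10 with the highest and the 10 with the lowest value in TPM (a transcript level scaled to transcript length and to the total of its library). They belong to a series of 479 libraries from heart, kidney, liver and lung, of which 120 are hearts. The series covers 2 mouse lines, one with a modified Dchs1 and one with a modified Fat4 gene, and each line has heterozygotes (Het, Dchs1+/- or Fat4+/-) and wild types (WT), which were littermate controls. All mice were C57BL/6NTac, and the modified alleles were made with VelociGene technology. The same selection on Car3 was repeated in the 30 WT hearts of the Fat4 line, which share no library with the Dchs1 line, and in the 30 Het hearts of each line. The labels give no age, sex, litter, batch or part of the heart, and do not say whether each library is from its own animal. A p-value here therefore sets a difference against the scatter among libraries, which may be technical.

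Car3 is used here as a marker because white and brown fat carry it at high levels, while heart muscle does not rely on it. Fat cells store triglyceride in a droplet coated by perilipin 1 (Plin1) and CIDE proteins, secrete hormones such as adiponectin (Adipoq) and adipsin (Cfd), and use phosphoenolpyruvate carboxykinase (Pck1) to make the glycerol backbone of triglyceride. Brown fat cells also carry Ucp1, which uncouples respiration to make heat. Fat lies around the great vessels at the base of the heart and along the groove between atria and ventricles, so a heart taken from a mouse can bring varying amounts of it. In bulk tissue, fewer cells of a type and less RNA per cell cannot be told apart.

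The promoters of the genes for phosphoenolpyruvate carboxykinase and adiponectin are shown because these genes followed Car3 closely in the hearts. Each covers 250 bases before and 50 bases from the start of the gene in RefSeq on GRCm38.p6, plus strand, for Pck1 at chr2:173152823-173153122 and for Adipoq at chr16:23146286-23146585. Capitals mark matches on either strand to CCAAT or to TGACGT, the core of the cyclic AMP response element.
Pck1: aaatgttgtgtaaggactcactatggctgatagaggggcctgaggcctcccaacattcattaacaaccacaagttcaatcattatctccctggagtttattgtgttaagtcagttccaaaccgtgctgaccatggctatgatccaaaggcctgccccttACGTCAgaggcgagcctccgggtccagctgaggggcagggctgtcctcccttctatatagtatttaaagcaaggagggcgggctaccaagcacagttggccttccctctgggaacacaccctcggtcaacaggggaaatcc
Adipoq: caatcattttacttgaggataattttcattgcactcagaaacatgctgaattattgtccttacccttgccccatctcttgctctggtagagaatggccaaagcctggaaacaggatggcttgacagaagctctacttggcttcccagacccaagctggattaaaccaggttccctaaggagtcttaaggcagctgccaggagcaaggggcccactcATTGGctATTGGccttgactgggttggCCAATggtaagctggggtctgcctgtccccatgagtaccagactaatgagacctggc
TGACGT was found on the minus strand of the Pck1 window, and CCAAT on both strands of the Adipoq window. TATAAA was also searched and found in neither. Of 32851 promoter windows of the same length, 7.51% held TGACGT, 37.4% held CCAAT and 13.6% held TATAAA, so a match is common and describes the letters only.

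The estimated counts of a library summed to between 19621772 and 21270117 in the 10 Car3-high and between 19237146 and 21982473 in the 10 Car3-low WT hearts of the Dchs1 line. In the Fat4 line the sums ran from 16574520 to 24286107 in Car3-high and from 14849694 to 22055311 in Car3-low WT hearts. Every heart library of both lines had at least 8.31 TPM of the Y-linked Ddx3y and at most 0.056 TPM of Xist, so the groups did not differ in the sex these genes mark. Ventricular muscle genes were abundant throughout, with a summed level over 16 genes between 41770 and 56820 TPM in Car3-high and between 42370 and 50610 TPM in Car3-low Dchs1 WT hearts. By the correlation of their expression with the others, the libraries ranked 2nd and 28th by Car3 stood apart in the Dchs1 line, and those ranked 1st and 4th in the Fat4 line.

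Car3 (gene ID 12350) lies on chromosome 3 from 14863538 to 14872381 on GRCm38.p6. Its level chose the groups, so it is a description and has no test. In Dchs1 WT hearts it ran from 12.8 to 69.2 TPM with a median of 19.5 TPM in the Car3-high group, from 4.48 to 9.69 TPM in the 10 libraries between, and from 0.14 to 2.43 TPM with a median of 0.222 TPM in the Car3-low group. At the upper boundary the 10th library had 12.8 TPM and the 11th had 9.69 TPM, and at the lower boundary the 20th had 4.48 TPM and the 21st had 2.43 TPM. Car3 in Fat4 WT hearts ran from 12.1 to 53.2 TPM in the Car3-high and from 0.125 to 3.81 TPM in the Car3-low group. There the boundaries fell between near-equal libraries, with 12.13 and 12.1 TPM at ranks 10 and 11 and 4.04 and 3.81 TPM at ranks 20 and 21. The level was continuous over the 30 hearts of each line, with no empty gap that would set the groups apart. Beside these hearts, Dchs1 WT kidney had a median of 33.5 TPM, lung 26.1 TPM and liver 309.4 TPM of Car3, each over 30 libraries.

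The genes most like Car3 over the 30 Dchs1 WT hearts were all genes known from fat or liver. The measure was Spearman's rho of TPM among genes with a mean of at least 1 TPM, given as a description, since the libraries share depth and scaling and the gene was chosen for its pattern. The order was Adipoq (0.97), Cfd (0.97), Pck1 (0.97), the haemoglobin-binding protein Hp (0.96), the lipid droplet protein Cidec (0.95), Plin1 (0.95), the oxidase Cyp2e1 (0.95) and the desaturase Scd1 (0.94). Over the 30 Fat4 WT hearts the same genes had rho between 0.895 and 0.948. The 10 libraries with the most Adipoq were the same 10 as those with the most Car3 in Dchs1 WT hearts, and 9 of the 10 with the least Adipoq were in the Car3-low group. For Pck1 these shared numbers were 8 and 9 in Dchs1 WT hearts and 6 and 8 in Fat4 WT hearts.

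**Figure D1:**
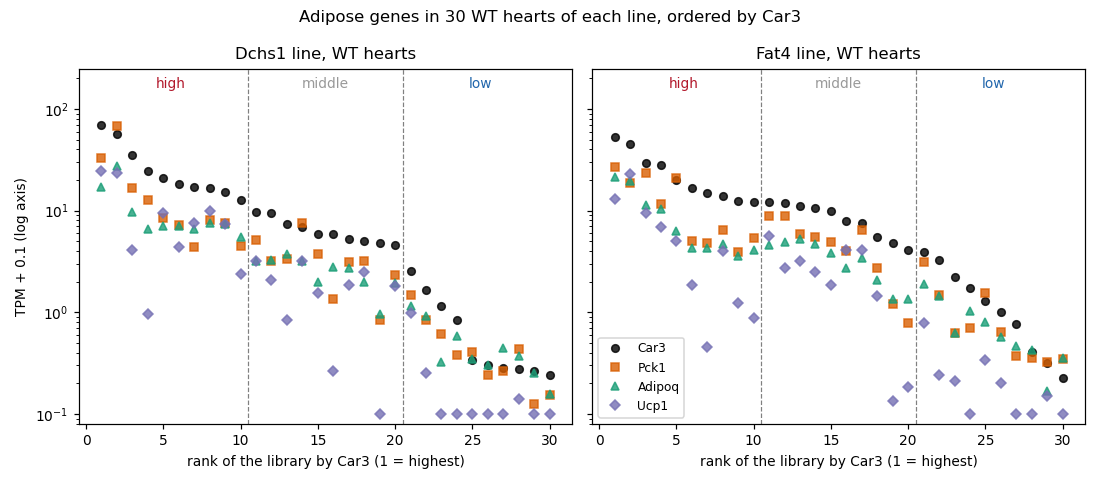
TPM + 0.1 on a log axis of Car3, Pck1, Adipoq and Ucp1 in the 30 WT heart libraries of each line, ordered by Car3 rank, with dashed lines at the boundaries of the 10 highest and the 10 lowest. Adipoq lies between 5.43 and 27.3 TPM in the Car3-high and between 0.0578 and 1.06 TPM in the Car3-low Dchs1 WT hearts, and Ucp1 is at 0 in 7 of the 10 Car3-low ones.

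Pck1, at chromosome 2 from 173153073 to 173159274, had a lowest value of 4.32, a median of 8.14 and a highest value of 67.8 TPM in Car3-high Dchs1 WT hearts, against 0.0244, 0.294 and 1.37 TPM in Car3-low ones. The groups did not overlap, and the library ranked 2nd by Car3 had the 67.8 TPM. Its log2 fold change, high over low, was 5.34 ± 0.624 (SE, 10 against 10 libraries, edgeR adjusted p = 3.02e-05). Pck1 in Fat4 WT hearts ran from 3.8 over a median of 8.96 to 26.9 TPM in Car3-high libraries, against 0.221, 0.532 and 3.05 TPM in Car3-low ones. Again no library of the Car3-high group fell within the range of the Car3-low group, and the log2 fold change was 3.91 ± 0.486 (edgeR adjusted p = 0.000146).

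Secreted fat hormones followed. Adipoq had 5.43, 7.1 and 27.3 TPM as lowest, median and highest value in Car3-high Dchs1 WT hearts, against 0.0578, 0.261 and 1.06 TPM in Car3-low ones. All 10 Car3-high libraries lay above the highest Car3-low library, with a log2 fold change of 4.59 ± 0.396 (edgeR adjusted p = 5.97e-07). Cfd, the complement factor D protease that fat secretes, had 14.5, 25.2 and 78.3 TPM in Car3-high, against 0.0691, 0.916 and 4.16 TPM in Car3-low Dchs1 WT hearts (log2 fold change 4.45 ± 0.42, edgeR adjusted p = 1.83e-06). The log2 fold changes in Fat4 WT hearts were 3.72 ± 0.463 for Adipoq and 3.46 ± 0.483 for Cfd, and the groups did not overlap for either gene. Of 14 genes of the adipokine list, 12 passed the filter on low counts in Dchs1 WT hearts, of which 5 rose and 0 fell, beside 1.8% of all 13191 genes tested that were called higher. Besides Adipoq and Cfd these were the retinol carrier Rbp4 (1.80 ± 0.331), the Wnt inhibitor Sfrp5 (1.61 ± 0.338) and the resistin-like Retnla (0.99 ± 0.21). Of 12 tested in Fat4 WT hearts 4 rose, beside 1.38% of all genes tested, and Sfrp5 had a log2 fold change of 1.10 ± 0.288 that did not pass (edgeR adjusted p = 0.0516).

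Lipid droplet coat proteins of fat cells also rose. Cidec, which fuses droplets into the large one of white fat, had 3.18, 5.57 and 28.8 TPM in Car3-high, against 0.0375, 0.302 and 1.01 TPM in Car3-low Dchs1 WT hearts (4.61 ± 0.527, edgeR adjusted p = 2.75e-05). Plin1 reached only 0.884 to 5.93 TPM in Car3-high hearts, against 0 to 0.342 TPM in Car3-low ones (4.60 ± 0.533, edgeR adjusted p = 2.99e-05). At these levels Plin1 met the filter on low counts through the Car3-high libraries, so its adjusted p is a description. Pck1 and Adipoq each exceeded 1 TPM in only 1 of 10 Car3-low Dchs1 WT hearts, and Cidec was similarly low there. These genes may also have met the filter through Car3-high libraries, which limits their adjusted p and the list counts that include them. Without the filter, all 38 named genes called in Dchs1 WT hearts stayed past the threshold. The groups did not overlap for either gene in either line. These were the only 2 of the 15 tested genes of the lipid droplet and lipolysis list that changed in WT hearts of either line. Of all genes tested, 1.8% were called higher in Dchs1 and 1.38% in Fat4 WT hearts. Pnpla2, the triglyceride lipase that heart muscle itself uses, ran from 252 to 397 TPM in Car3-high and from 228 to 469 TPM in Car3-low Dchs1 WT hearts (-0.12 ± 0.0995, edgeR adjusted p = 0.596).

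Other fat cell genes were not called. Of 13 tested genes of the adipocyte identity list, 7 did not pass in Dchs1 WT hearts, Fabp4 and Pparg among them. Fabp4, a fatty acid carrier of fat cells and of heart capillaries, was at 1303 to 2502 TPM in Car3-high and 1207 to 2029 TPM in Car3-low Dchs1 WT hearts (0.13 ± 0.107, edgeR adjusted p = 0.576). Pparg, the master regulator of fat cell formation, had medians of 9.32 TPM in Car3-high and 7.89 TPM in Car3-low hearts (0.04 ± 0.138, edgeR adjusted p = 0.923). Of 18 genes of the adipocyte identity list, 13 passed the filter in Dchs1 WT hearts, and 6 rose and 0 fell, beside 1.8% of all genes tested that were called higher. The median log2 fold change of the list was 0.51 against 0.0003 over all genes tested. Besides Adipoq, Cfd, Cidec and Plin1 the 6 risers were the small adipocyte protein Adig (1.08 ± 0.236) and the transcription factor Cebpa (0.85 ± 0.187). Of 13 tested in Fat4 WT hearts 7 rose, the same 6 genes with the amine oxidase Aoc3, and 0 fell, beside 1.38% of all genes tested that were called higher. In Het hearts 4 of 12 tested genes of the list rose in the Dchs1 and 7 of 13 in the Fat4 line, beside 4.79% and 8.22% of all genes. Fabp4 was called lower in Fat4 Het hearts, beside 5.43% of all genes, and 0 of the list fell in Dchs1 Het hearts. Leptin (Lep), the satiety hormone of white fat, did not pass the filter and stayed at or below 0.0837 TPM in Car3-high and 0.0215 TPM in Car3-low Dchs1 WT hearts. Because Fabp4 dominates the sum, the summed level of the 18 genes overlapped, at 1403 to 2637 TPM in Car3-high and 1273 to 2119 TPM in Car3-low hearts.

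The brown fat marker Ucp1 had the largest rise by the naming rule. It ran from 0.862 over a median of 7.35 to 24.4 TPM in Car3-high Dchs1 WT hearts, and in Car3-low hearts it was at 0 in 7 of 10 libraries and at 0.873 TPM in the highest. In the groups, 9 of 10 Car3-high libraries lay above the highest Car3-low library. The fitted log2 fold change was 6.29 ± 0.741 (edgeR adjusted p = 3.14e-05), a size that depends on the prior count where so many libraries are at 0. Ucp1 met the filter on low counts through its Car3-high libraries, so its rank among the rises and its adjusted p are a description. Ucp1 in Fat4 WT hearts ran from 0.358 to 22.8 TPM in Car3-high and from 0 to 0.679 TPM in Car3-low libraries. Within the Car3-high Dchs1 group, Ucp1 and Adipoq were both highest in the libraries ranked 1st and 2nd. These had 24.4 and 23.25 TPM of Ucp1 beside 17.1 and 27.3 TPM of Adipoq. Elsewhere in the group Ucp1 could differ at similar Adipoq. The library ranked 4th had 0.862 TPM of Ucp1 beside 6.49 TPM of Adipoq, and the one ranked 8th had 9.79 TPM beside 7.39 TPM. Dio2, the deiodinase that activates thyroid hormone in brown fat, was the other riser among 7 tested genes of the brown adipocyte list in each line, by 1.10 ± 0.208 in Dchs1 and 0.68 ± 0.135 in Fat4 WT hearts. The shares called higher over all genes tested were 1.8% and 1.38%. Cidea, a droplet protein of brown fat that heart muscle also carries, had medians of 30.9 TPM in Car3-high and 23 TPM in Car3-low Dchs1 WT hearts (0.47 ± 0.141, edgeR adjusted p = 0.0716).

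Hp and Cyp2e1, both known from liver as well as fat, were among those with the smallest p. Hp had 6.92, 8.77 and 25.8 TPM in Car3-high, against 0.275, 1.1 and 2.71 TPM in Car3-low Dchs1 WT hearts (3.09 ± 0.311, edgeR adjusted p = 4.34e-06). Cyp2e1 had 8.43, 13.8 and 47.6 TPM in Car3-high, against 0.803, 1.7 and 4.81 TPM in Car3-low hearts (3.10 ± 0.374, edgeR adjusted p = 4.34e-05). Neither pair of groups overlapped. Albumin (Alb), which marks liver cells, was at or below 0.0339 TPM in every Car3-high Dchs1 WT heart and reached 0.997 TPM in a Car3-low one. The summed level of the 9 genes of the hepatocyte list went the other way, with medians of 7.6 TPM in Car3-high and 4.02 TPM in Car3-low hearts. Its ranges overlapped, at 5.14 to 11.6 TPM and 2.83 to 12.9 TPM, and of the 2 genes tested 0 were called. Whether liver RNA had a part was not tested. Scd1, which makes monounsaturated fatty acids, rose by 2.38 ± 0.35 in Dchs1 and 1.94 ± 0.256 in Fat4 WT hearts (edgeR adjusted p = 0.00061 and 0.000255). It was the only riser among 19 tested genes of fatty acid and triglyceride synthesis in each line, and the acetyl-CoA synthetase Acss2 fell by 0.15 ± 0.0371 in Dchs1 WT hearts. Over all genes tested, 1.8% (Dchs1) and 1.38% (Fat4) were called higher, and 0.72% lower in Dchs1 WT hearts. The long non-coding RNA Snhg11 rose by 1.54 ± 0.2 (edgeR adjusted p = 0.000128). Among 9 other tested carbonic anhydrases, mitochondrial Car5b was the one that rose, by 1.49 ± 0.242 in Dchs1 WT hearts, and it also passed in Fat4 WT hearts.

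Over all genes, 238 of 13191 tested were called higher in Car3-high than in Car3-low Dchs1 WT hearts (1.8%, Car3 among them) and 95 lower (0.72%), at an edgeR adjusted p under 0.05. A limma fit of log2(TPM + 1) gave another split, with 608 higher and 7 lower. In Fat4 WT hearts 181 of 13114 were called higher (1.38%) and 31 lower (0.236%), against 122 and 2 by limma. Leaving out the libraries ranked 1st and 4th in the Fat4 line, which stood apart, 63 were called higher and 7 lower, and without the 2 libraries highest in Car3, 55 and 4 there and 138 and 38 in Dchs1 WT hearts. Leaving Car3 out, 110 genes called higher were shared, which is 47.2% of the Dchs1 and 62.1% of the Fat4 calls among genes tested in both, where 1.36% of tested genes were called higher in the Fat4 line. Of genes called lower, 6 were shared, or 6.32% of the Dchs1 and 19.4% of the Fat4 calls. The direction in Fat4 WT hearts was the same for 231 of 233 Dchs1 calls that were higher and for 93 of 95 that were lower. The share of all tested genes with the same direction in both lines was not computed, so these counts have no background beside them. Libraries fell into stretches of consecutive numbers, the available stand-in for a batch, and the longest stretch held 7 of 10 Car3-high and 9 of 10 Car3-low Dchs1 WT hearts. Within that stretch 316 genes were called higher and 156 lower, and with the stretch as a covariate 342 and 265. In Fat4 WT hearts, with 7 of 10 and 10 of 10 in the longest stretch, the counts were 216 and 62 within it and 222 and 82 with the covariate.

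The change was not shown to differ between the lines. A test of the difference between the Dchs1 and the Fat4 high-minus-low change called 0 of 13554 genes in edgeR (lowest adjusted p = 1), with 322 at an unadjusted p under 0.05, and 0 also without the filter on low counts and with DESeq2 size factors. The smallest unadjusted p-values belonged to the protocadherin Pcdhga12, the heat shock relative Hspa12b, F630028O10Rik, the sorting nexin Snx12, the co-chaperone Stip1 and the magnesium transporter Nipa2. For Pcdhga12 the high-minus-low log2 fold change was 0.45 ± 0.124 in Dchs1 and -0.10 ± 0.0883 in Fat4 WT hearts.

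**Figure D2:**
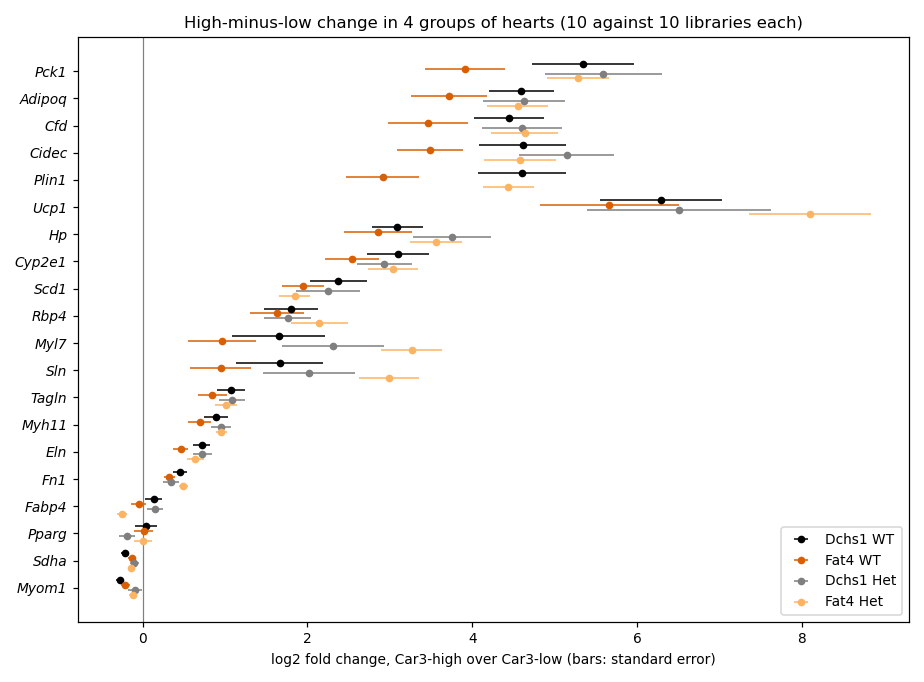
Log2 fold change, Car3-high over Car3-low, with its standard error, of 20 genes in the WT and Het hearts of both lines, each from 10 against 10 libraries. The fat genes lie between 1.63 and 8.10, smooth muscle Myh11 and Tagln between 0.69 and 1.09, and Fabp4, Pparg, Sdha and Myom1 between -0.27 and 0.15. Plin1 did not pass the filter in Dchs1 Het hearts and has no point there.

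Atrial muscle genes were low in many Car3-low WT hearts, though nearly none passed the test there. Myl7, the myosin light chain of atrial muscle, had 248, 325 and 402 TPM as lowest, median and highest value in Car3-high Dchs1 WT hearts, against 3.98, 40.2 and 329 TPM in Car3-low ones. The ranges overlapped, since 3 of the 10 Car3-low libraries had between 191.9 and 328.9 TPM while the other 7 had between 3.98 and 72.5 TPM. The log2 fold change of 1.65 ± 0.566 did not pass (edgeR adjusted p = 0.119). Myl7 in Fat4 WT hearts had 276, 373 and 502 TPM in Car3-high, against 2.38, 199 and 389 TPM in Car3-low libraries (0.96 ± 0.415, edgeR adjusted p = 0.239). Over the 8 atrial genes the summed level ran from 1466 to 2482 TPM in Car3-high and from 198.8 to 2368 TPM in Car3-low Dchs1 WT hearts. Of 7 tested atrial genes, Dkk3 rose in Dchs1 WT hearts (1.51 ± 0.383, edgeR adjusted p = 0.0335, or 0.061 without the libraries that stood apart), and in Fat4 WT hearts 0 passed, with median log2 fold changes over the list of 1.63 and 0.92. Among all genes tested, 1.8% in Dchs1 and 1.38% in Fat4 WT hearts were called higher. Among the Car3-low Dchs1 WT hearts, the 7 with under 100 TPM of Myl7 had 0.0578 to 0.484 TPM of Adipoq, and the other 3 had 0.227 to 1.06 TPM.

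With the log2 level of Myl7 as a covariate, a fit added after the data were seen, 3 genes besides Car3, which chose the groups and has no test, were called in Dchs1 WT hearts, namely Adipoq, Cfd and Hp, all higher. Adipoq then had a log2 fold change of 3.41 ± 0.524 (edgeR adjusted p = 0.0111), and Pck1 had 3.69 ± 0.857 (edgeR adjusted p = 0.347). Besides Car3, the Fat4 WT hearts had 5 genes called higher in that fit, which were Cidec, Cyp2e1, Scd1, Pck1 and Adipoq, and 1 lower, Abcb4. Myl7 itself went with the groups: it was under 100 TPM in 0 of 10 Car3-high hearts of either line, against 7 of 10 Dchs1 and 4 of 10 Fat4 Car3-low ones. The fit could therefore hardly separate Myl7 from the Car3 group, and standard errors of Adipoq and Pck1 in Dchs1 WT hearts were larger than without it. No conclusion is drawn from calls lost in it. A comparison in which Myl7 differed little was that of the 10 highest with the 10 middle libraries, also added after the data were seen. There Myl7 had medians of 325 TPM in Car3-high and 317 TPM in middle Dchs1 WT hearts (0.08 ± 0.139), while Adipoq rose by 2.001 ± 0.295 (edgeR adjusted p = 0.00434), Cfd by 1.59 ± 0.289 and Hp by 1.38 ± 0.24. Of 13254 genes tested 6 were called higher (0.0453%, Car3 among them) and 0 lower. Scgb1a1, an airway gene described below, was also among the 6. In Fat4 WT hearts 0 of 13181 were called higher (0%) or lower, with 571 at an unadjusted p under 0.05, and Adipoq had 1.43 ± 0.368 (edgeR adjusted p = 0.787). The part of the atrial markers in the other results was not tested beyond these fits.

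**Figure D3:**
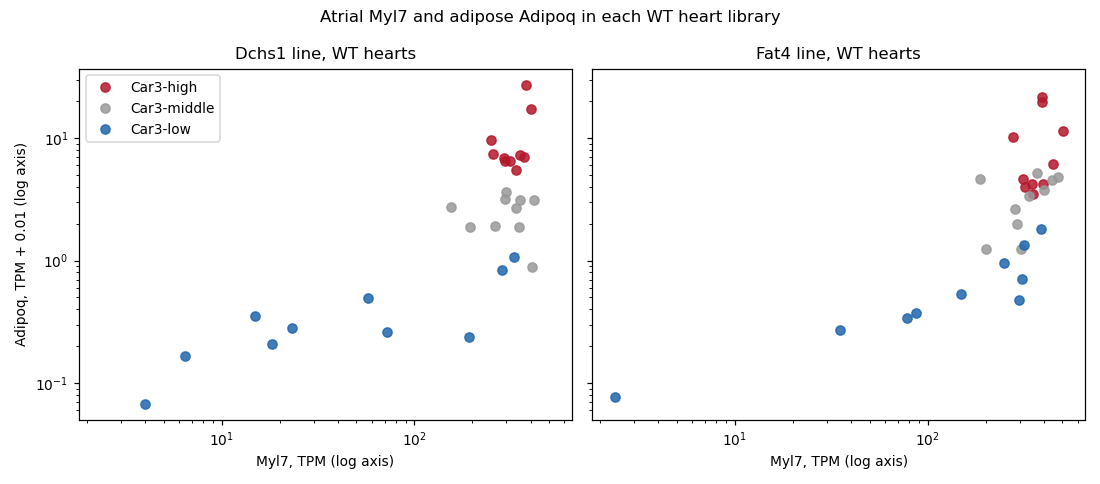
Level of the atrial gene Myl7 against the fat gene Adipoq, Myl7 in TPM and Adipoq in TPM + 0.01, on log axes, with 1 point for each of the 30 WT heart libraries of each line, coloured by Car3 group. All Car3-high and middle libraries have over 100 TPM of Myl7, and 7 of 10 Dchs1 and 4 of 10 Fat4 Car3-low libraries have less.

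From the middle to the lowest libraries the fat genes differed again. Of 13121 genes tested in Dchs1 WT hearts 17 were called higher in the middle group (0.13%) and 0 lower, and in Fat4 WT hearts 11 of 13072 (0.0841%) and 0 lower. Adipoq was higher in middle than in Car3-low libraries by 2.59 ± 0.31 in Dchs1 and 2.30 ± 0.345 in Fat4 WT hearts, and Pck1 by 2.99 ± 0.428 and 2.53 ± 0.447. Picked out after their values were seen, elastin (Eln, 0.56 ± 0.112), nephronectin (Npnt, 1.56 ± 0.296) and its receptor subunit Itga8 (1.22 ± 0.241) were among the 17. Of the lists, 0 of 9 smooth muscle and 0 of 18 fibroblast and matrix genes were called in this comparison in either line.

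Genes of smooth muscle, which vessel walls hold, were higher in Car3-high hearts of both lines. Of 9 tested genes of the list, 6 rose and 0 fell in each line, where 1.8% (Dchs1) and 1.38% (Fat4) of all genes tested were called higher, with a median log2 fold change of 0.97 in Dchs1 and 0.69 in Fat4 WT hearts, against 0.0003 and -0.0013 over all genes tested. The smooth muscle myosin Myh11 had 19.5, 24.2 and 31.6 TPM in Car3-high, against 7.88, 11.7 and 21.3 TPM in Car3-low Dchs1 WT hearts (0.89 ± 0.142, edgeR adjusted p = 0.00118). The libraries overlapped slightly, with 9 of 10 Car3-high ones above the highest Car3-low one. The actin-binding Tagln rose by 1.07 ± 0.168, calponin (Cnn1) by 1.65 ± 0.261 and the enteric actin Actg2 by 1.31 ± 0.226, and Acta2 and Lmod1 made up the 6. In Fat4 WT hearts the calls of Myh11, Tagln, Cnn1 and Actg2 were lost without the libraries ranked 1st and 4th, with Myh11 at 0.54 (edgeR adjusted p = 0.0518) and Cnn1 at 0.89 (edgeR adjusted p = 0.0887). With the Myl7 covariate no gene of the list passed in either line, and 0 of 9 passed between the highest and the middle or the middle and the lowest libraries. That covariate went with the Car3 groups, so no conclusion is drawn from calls lost in its fit. The summed level of the 9 genes ran from 222.4 to 408.8 TPM in Car3-high and from 87.5 to 243.5 TPM in Car3-low Dchs1 WT hearts. Elastin, a gene outside the list, had 19.6, 24.1 and 29.6 TPM in Car3-high, against 9.83, 13.1 and 21 TPM in Car3-low hearts (0.71 ± 0.108, edgeR adjusted p = 0.000727).

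Of 18 fibroblast and matrix genes tested, 3 rose in Dchs1 and 5 in Fat4 WT hearts, and 0 fell, with median log2 fold changes of 0.26 and 0.29 against 0.0003 and -0.0013 over all genes, of which 1.8% and 1.38% were called higher. Fibronectin (Fn1) rose by 0.46 ± 0.0842 and 0.32 ± 0.0715, the fibroblast protein Pi16 by 0.58 ± 0.105 and 0.40 ± 0.0694, and periostin (Postn) by 0.62 ± 0.131 and 0.51 ± 0.0999, in Dchs1 and Fat4 WT hearts. No gene passed in either line among 12 tested endothelial, 7 lymphatic, 8 mesothelial, 10 macrophage, 12 interferon, 14 glucocorticoid response and 17 circadian genes.

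Genes of airway secretory cells were detected in many Car3-high hearts. Scgb1a1, the secretoglobin of club cells in the lung, exceeded 1 TPM in 8 of 10 Car3-high, 2 of 10 middle and 0 of 10 Car3-low Dchs1 WT hearts, and reached 424 TPM in a Car3-high one with a median of 56 TPM. The gene exceeded 1 TPM in 7 of 10 Car3-high, 4 of 10 middle and 0 of 10 Car3-low Fat4 WT hearts, and its highest level was 903 TPM. The highest values were in libraries that stood apart: 424 TPM in the Dchs1 library ranked 2nd, and 903 and 719 TPM in the Fat4 libraries ranked 4th and 1st. These libraries also had the highest Myh11 of their groups, with 31.6 TPM in that Dchs1 library and 36.6 and 36.4 TPM in those Fat4 libraries. The other Car3-high libraries reached 89.8 TPM of Scgb1a1 in the Dchs1 line and 77.3 TPM in the Fat4 line. Cyp2f2, an oxidase of the same cells, exceeded 1 TPM in 8 of 10 Car3-high, 1 of 10 middle and 0 of 10 Car3-low Dchs1 WT hearts. Both genes failed the filter of the high-against-low comparison, so their levels are given as a description. Without the filter both passed in Dchs1 WT hearts, Scgb1a1 with 10.06 ± 1.39 (edgeR adjusted p = 0.0002) and Cyp2f2 with 7.47 ± 1.025 (edgeR adjusted p = 0.00019). In Fat4 WT hearts they had 12.2 ± 2.29 and 8.18 ± 1.55 (edgeR adjusted p = 0.0078 for each). These sizes depend on the prior count where Car3-low libraries are near 0. Sftpc, the surfactant protein of lung alveoli, exceeded 1 TPM in 1 of 10 Car3-high and 0 of 10 Car3-low hearts of each line. Over the 8 lung epithelium genes the summed level ran from 0.23 to 531.9 TPM in Car3-high and from 0.259 to 0.682 TPM in Car3-low Dchs1 WT hearts, where Scgb3a2 was at 0 in every library. In the Fat4 line it ran from 0.457 to 1104 TPM in Car3-high and from 0.0973 to 0.427 TPM in Car3-low WT hearts, where Sftpc and Sftpa1 were at 0. Both airway genes were picked out once their values were known, and the part of lung or airway RNA in the other results was not tested.

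**Figure D4:**
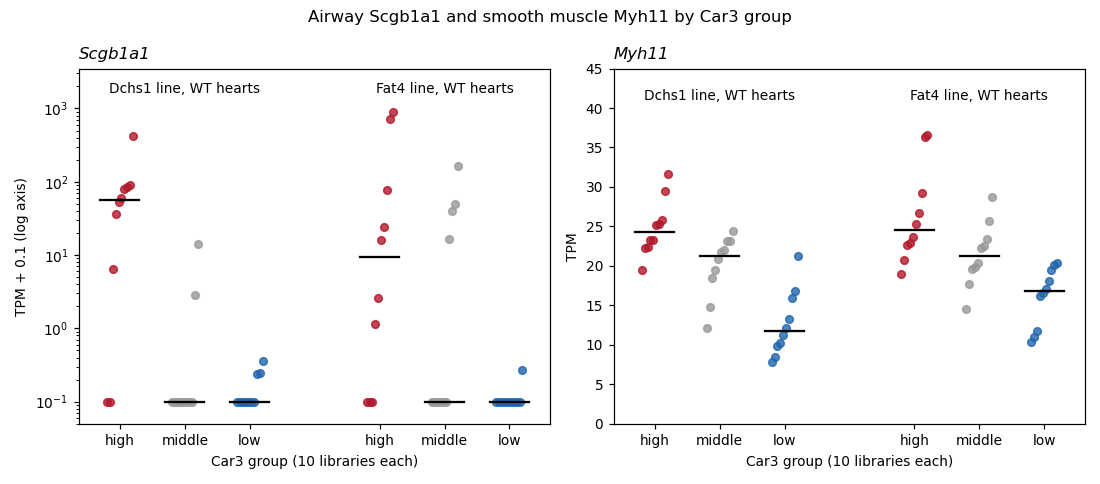
Left, Scgb1a1 as TPM + 0.1 on a log axis, and right, Myh11 in TPM, in the 10 Car3-high, 10 middle and 10 Car3-low WT hearts of each line, with a bar at each median. Scgb1a1 is over 1 TPM in 8 and 7 Car3-high libraries and in no Car3-low one, and the Myh11 median is 24.2 TPM in Car3-high and 11.7 TPM in Car3-low Dchs1 WT hearts.

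Genes lower in Car3-high hearts changed little in size. The largest falls by the naming rule in Dchs1 WT hearts were those of the sarcoglycan Sgcd (-0.50 ± 0.136), the phospholipid flippase Atp8a2 (-0.42 ± 0.113), the glycogen phosphatase laforin (Epm2a, -0.40 ± 0.089), the alpha-catenin of heart muscle Ctnna3 (-0.39 ± 0.104), Cyfip2 (-0.34 ± 0.0669) and the Golgi protein Cog5 (-0.33 ± 0.0868). Sgcd had 6.92, 12.7 and 14.8 TPM in Car3-high, against 10.4, 16.2 and 18.4 TPM in Car3-low hearts, so the groups overlapped. None of these 6 passed in Fat4 WT hearts, where Sgcd had -0.27 ± 0.158 and Cyfip2 had -0.13 ± 0.0536. The sarcomere proteins Myom1 (-0.27 ± 0.0524) and Mybpc3 (-0.32 ± 0.0768) were the 2 of 16 ventricular muscle genes that fell in Dchs1 WT hearts, and Myom1 fell by 0.21 ± 0.0521 in Fat4 WT hearts. Of 19 respiratory chain genes 4 fell in Dchs1 WT hearts, namely Sdha (-0.22 ± 0.0442), Ndufs1 (-0.19 ± 0.0385), Atp5a1 (-0.14 ± 0.0355) and Uqcrc2 (-0.13 ± 0.032), and 0 changed in Fat4 WT hearts, beside 0.72% and 0.236% of all genes tested that were called lower. The median over the list was -0.07 in Dchs1 and -0.09 in Fat4 WT hearts. Without the libraries ranked 2nd and 28th, the falls of Sgcd, Ctnna3, Cog5, Mybpc3, Atp5a1, Vldlr and Acss2 did not pass, with edgeR adjusted p between 0.0503 and 0.0609. Without the 2 Dchs1 WT libraries highest in Car3 these falls did not pass either. The falls of Atp8a2 (-0.40, edgeR adjusted p = 0.104) and Uqcrc2 (-0.12, edgeR adjusted p = 0.0723) were also lost in that fit. The fall of Myom1 in Fat4 WT hearts did not pass without the libraries ranked 1st and 4th (-0.18, edgeR adjusted p = 0.115). The lipoprotein receptor Vldlr fell by 0.24 ± 0.0628 in Dchs1 WT hearts. The calcium pump Atp2a1 of fast skeletal muscle rose by 0.85 ± 0.197 in Dchs1 WT hearts. Its level was low, at 0.381 to 0.732 TPM in Car3-high and 0.174 to 0.57 TPM in Car3-low hearts. Atp2a1 was the only one of 7 tested skeletal muscle genes to pass, beside 1.8% of all genes tested that were called higher. The median log2 fold change of that list was -0.0054.

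Het hearts sorted on Car3 in the same way gave larger counts in the main fit, though for the Dchs1 line not in every fit. The targeted genes followed the labels, with a Het-over-WT log2 fold change of -1.10 ± 0.0553 for Dchs1 in Dchs1 Het and -0.95 ± 0.0584 for Fat4 in Fat4 Het hearts. Car3 itself did not pass between genotypes: its log2 fold change, Het over WT over all 30 hearts of each, was -0.37 ± 0.475 for Dchs1 (edgeR adjusted p = 0.541) and -0.94 ± 0.412 for Fat4 (edgeR adjusted p = 0.214). In that comparison 50.2% of genes were called in either direction for Dchs1 and 1.6% for Fat4. Between Car3-high and Car3-low Dchs1 Het hearts 627 of 13101 genes were called higher (4.79%) and 284 lower (2.17%), and in Fat4 Het hearts 1078 of 13119 were called higher (8.22%) and 712 lower (5.43%). By limma the split was 117 and 11 in Dchs1 Het hearts, where Dchs1 WT hearts had 608 and 7. In Fat4 Het hearts it was 2577 and 18, where Fat4 WT hearts had 122 and 2. With the number stretch as a covariate, 506 genes were called in Dchs1 Het against 607 in Dchs1 WT hearts. Pck1 rose by 5.59 ± 0.709 in Dchs1 and 5.28 ± 0.373 in Fat4 Het hearts, and Adipoq by 4.63 ± 0.496 and 4.55 ± 0.37.

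The atrial genes passed in Het hearts. Of 7 tested, 6 rose in Dchs1 and 7 in Fat4 Het hearts, beside 4.79% and 8.22% of all genes tested that were called higher. Myl7 rose by 3.26 ± 0.368 in the Fat4 line, with 318, 412 and 491 TPM in Car3-high and 4.71, 23.4 and 101 TPM in Car3-low Fat4 Het hearts. In the 4 groups 0 Car3-high hearts had under 100 TPM of Myl7, against 9 of 10 Car3-low Fat4 Het, 8 of 10 Car3-low Dchs1 Het, 7 of 10 Car3-low Dchs1 WT and 4 of 10 Car3-low Fat4 WT hearts. In Fat4 Het hearts, where 8.22% of all genes tested were called higher and 5.43% lower, 14 of 19 respiratory chain genes fell and 0 rose. Of 18 PPAR alpha and fasting genes 10 fell and 2 rose, and of 18 fibroblast and matrix genes 14 rose and 0 fell. Whether these counts differ between genotypes was not tested.

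Leaving Car3 out, 80 genes were called higher and 1, Acad12, lower in all 4 groups of hearts. Of the genes tested in Dchs1 WT, Fat4 WT, Dchs1 Het and Fat4 Het hearts, 1.8%, 1.38%, 4.79% and 8.22% were called higher. The shares called lower were 0.72%, 0.236%, 2.17% and 5.43%. Besides the fat genes the 80 included smooth muscle Myh11, Tagln, Cnn1, Actg2, Acta2 and Lmod1, elastin and biglycan (Bgn), and, picked out once their values were known, Shox2, a transcription factor of the sinoatrial node. Shox2 had 0.727, 0.878 and 1.23 TPM in Car3-high, against 0.165, 0.373 and 1.01 TPM in Car3-low Dchs1 WT hearts (1.01 ± 0.203, edgeR adjusted p = 0.00787). With the Myl7 covariate, which went with the Car3 groups, Shox2 had 0.49 ± 0.239 and did not pass.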

How the data were processed

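RNA of mouse hearts was extracted with magnetic beads, selected for poly(A) and sequenced as strand-specific single-end libraries, per the labels' protocols, in which read lengths conflict. GRCm38, FastQC and bcl2fastq 2.17 are named per the submitters' processing notes. How reads were aligned and counted is not given in the sources used here. Estimated counts per gene were deposited by the authors (15.3% of Dchs1-line and 15.5% of Fat4-line values not whole), with TPM for the same libraries. TPM keep no depth.

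All columns were matched to labelled libraries. TPM of Car3 ranked the 30 hearts of each group. Estimated counts were rounded and fitted with edgeR 4.0.16 in R 4.3.3 (TMM, filterByExpr with minimum count 10 and total 15, quasi-likelihood F test, Benjamini-Hochberg adjustment over all genes tested, threshold 0.05), on the 10 highest and 10 lowest libraries of a group. Each standard error is the size of the log2 fold change divided by the root of its F value. The difference between lines was an interaction term. Alternatives were DESeq2 1.42.0, its size factors, no filter, limma 3.58.1 on log2(TPM + 1), other group sizes, a slope, ranking by Pck1 or Adipoq, number stretches, fits without libraries standing apart and all 30 libraries in the fit.

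Members and 32 gene lists (390 of 392 entries matched) were chosen with earlier results of these data known. Named genes were Pck1, those past the threshold with a mean of at least 1 CPM (the 10 smallest p, 6 largest rises and 6 largest falls in Dchs1 WT hearts), up to 4 called members of each list, the 6 smallest p of the interaction test, 8 genes most like Car3 and defining markers. No libraries of a group agreed within sampling noise (lowest chi-square per gene 3.48). On simulated counts, 86% of 1.5-fold and 97% of 2-fold changes were recovered in Dchs1 WT hearts (92% and 97% in Fat4), with 5.7% and 3.1% of calls unchanged genes. Other genes in the text were chosen after their values were seen.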

Additional observations from a re-analysis of the deposited data

Results flagged for a closer look

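A library far from the other 9 of its group, by Dixon's test on log2(TPM + 1), was found 10 times in 172 groups of named genes in WT hearts, and chance alone flags about 1 in 20. In Car3-low Dchs1 WT hearts the library ranked 21st by Car3, next to the boundary, was the highest for Ucp1 (0.872 TPM, group median 0) and Snhg11 (0.484 TPM, median 0.27) and the lowest for Sgcd (10.4 TPM, median 16.2) and Cog5 (6.96 TPM, median 9.79). The library ranked 22nd was the highest for Plin1 (0.342 TPM, median 0.0732), and the one ranked 24th the lowest for Mybpc3 (588 TPM, median 684). In the Car3-high group the library ranked 8th was the lowest for Nipa2 (7.23 TPM, median 9.08). In Car3-low Fat4 WT hearts the library ranked 21st was the highest for Ucp1 (0.679 TPM, median 0.0753), the one ranked 29th the lowest for Pi16 (14.1 TPM, median 19.1), and the one ranked 25th the lowest for F630028O10Rik (0.226 TPM, median 0.539).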

How the results depend on the processing

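Counts of called genes depended on the fit, in both directions. Against 333 in Dchs1 WT hearts, DESeq2 called 667, no filter 562, limma 615, 15 against 15 libraries 150, a slope over log2(Car3 TPM + 1) 939, ranking by Pck1 217, the number stretch as a covariate 607 and a fit of all 30 libraries 663. Against 212 in Fat4 WT hearts, DESeq2 called 496, limma 124, 15 against 15 libraries 128, the slope 1197, all 30 libraries 465, and leaving out the libraries ranked 1st and 4th, which stood apart, 70. Against 911 in Dchs1 Het hearts, limma called 128, 5 against 5 libraries 308, the stretch covariate 506 and the longest stretch alone 530. Against 1790 in Fat4 Het hearts these were 406 for 5 against 5, 1087 for the covariate and 1027 for the longest stretch. Of the fits added after the data were seen, the 10 highest against the 10 middle libraries called 6, 0, 1 and 9 genes in Dchs1 WT, Fat4 WT, Dchs1 Het and Fat4 Het hearts, the middle against the lowest 17, 11, 243 and 506, and the Myl7 covariate 4, 7, 1 and 18. Without the 2 highest libraries 176, 59 and 351 were called in the first 3 of these groups. The cause of these differences was not tested. Of 38 named genes called in Dchs1 WT hearts, 38 stayed past the threshold in DESeq2, 29 without the libraries that stood apart, 27 without the 2 highest, 24 when ranked by Pck1, 19 with 15 against 15 libraries, 19 of the 30 that limma tested, 7 in the middle against the lowest, 3 in the highest against the middle and 3 with the Myl7 covariate. The log2 fold change of Atp2a1 turned to -0.0394 between the highest and the middle libraries. Leaving out single replicates was not run, since groups hold 10 libraries. No paired analysis was possible because the labels give the groups no shared replicate numbers.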

Other observations

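Blood and immune genes varied between hearts without passing in most groups. The alpha-globin Hba-a1 ran from 1854 to 19140 TPM in Car3-high and from 1379 to 8892 TPM in Car3-low Dchs1 WT hearts (0.89 ± 0.426, edgeR adjusted p = 0.288). In Fat4 Het hearts 5 of 6 tested erythroid genes rose, beside 8.22% of all genes tested that were called higher. The B cell receptor chain Cd79a had a median of 1.29 TPM in Car3-high and 0.486 TPM in Car3-low Dchs1 WT hearts (1.01 ± 0.337, edgeR adjusted p = 0.106), and Cd79b rose by 1.32 ± 0.337 in Fat4 WT hearts (edgeR adjusted p = 0.0469). Of 8 tested mesothelial genes 5 rose in Dchs1 Het and 7 in Fat4 Het hearts, beside 4.79% and 8.22% of all genes tested. Among them was Upk3b, by 1.22 ± 0.354 and 2.32 ± 0.365, while in Dchs1 WT hearts its medians were 1.6 TPM in Car3-high and 1.52 TPM in Car3-low libraries.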
